A study of Mus musculus with 9 samples.

Results

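A set of 9 genes of brain lipid transport was followed across 3 populations of sorted mouse cells: the apolipoproteins Apod, Apoe and Clu, the lipoprotein receptors Lrp1, Lrp2, Lrp8 and Vldlr, and the lipid exporters Abca1 and Abcg1. The genes were chosen by family, with their signals on these same 9 arrays and the differences between the populations in view. Every non-control probe that the array design names for one of them was taken, which gave 14 probes of 41174. All 9 genes were among the 24892 genes tested. Because the list was drawn up with the values known, the levels and differences of the 9 genes are given as a description, without a p-value.

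The series holds 9 one-colour Agilent microarrays, 3 per population. In each experiment 10 hippocampi and subventricular zones (SVZ, the neurogenic wall of the lateral ventricle) of mice aged 6 to 8 weeks were pooled, and the RNA of 1000 cells sorted by fluorescence was amplified by the SuperAmp protocol and labelled with Cy3. All 3 populations came from mice with a fluorescent reporter transgene. The hippocampal Sox2-GFP population came from the hippocampus of mice with GFP under the Sox2 promoter, which is active in neural stem cells and in other glia. The SVZ Sox2-GFP population came from the SVZ and carried the same GFP transgene. The hippocampal DCX-DsRed population came from the hippocampus of mice with DsRed under the Dcx promoter, which is active in newborn neurons. A sorted pool thus holds the cells in which a transgene was on, whatever their type. The labels give the arrays of a population the letters A, B and C without saying whether they came from separate pools, so the spread between arrays, and each p-value, may be technical in part. The comparison of SVZ Sox2-GFP with hippocampal DCX-DsRed cells differs in both region and reporter.

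Lipids leave glial cells when exporters of the ATP-binding cassette family move cholesterol and phospholipid across the plasma membrane onto apolipoproteins. The particles so formed are bound by receptors of the low-density lipoprotein receptor family on neurons and other cells and are taken up by endocytosis. Astrocytes are the best known source of apolipoprotein E in the brain, myelinating oligodendrocytes are a known source of apolipoprotein D, and the receptors Lrp8 and Vldlr also transmit the Reelin signal that guides migrating neurons.

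A level below is the log2 of a probe's background-corrected signal minus the 75th percentile of its array, so that 0 is the array's 75th percentile and a step of 1 is a doubling. Values are listed in the order A, B, C. Levels are compared between arrays for 1 probe and never between probes. The marker sums below add linear levels over the genes of a list, so bright markers weigh most. They too are compared only between arrays. A lower level in a sorted pool cannot be told apart from fewer cells that express the gene.

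Across the arrays, 80.5 to 88.6% of spots were well above background by the scanner software's criterion and no non-control spot was saturated. Hippocampal Sox2-GFP array C stood apart: its correlation with arrays A and B of its population was 0.783 to 0.816, against 0.919 between A and B. The 2 genes whose promoters drive the transgenes did not separate the populations by the sort. Sox2 stood at 0.96, 0.94 and -0.92 in hippocampal Sox2-GFP cells and at 1.33, 1.74 and 1.72 in hippocampal DCX-DsRed cells, so the second population was the higher one, while SVZ Sox2-GFP cells gave 0.94, 2.09 and 2.30, with arrays B and C above every DCX-DsRed array. Dcx stood at -1.26, -0.76 and 1.30 in DCX-DsRed cells, at -0.17, -0.75 and -2.85 in hippocampal Sox2-GFP cells and at 2.60, 3.07 and -2.34 in SVZ Sox2-GFP cells, and all 3 groups overlapped. The summed level of 10 markers of myelinating oligodendrocytes, such as Mbp and Mog, was 266 to 336 times the 75th percentile on the hippocampal DCX-DsRed arrays. That sum was 35.4, 41.1 and 2.22 on the hippocampal Sox2-GFP arrays and 53.1, 83.5 and 22.8 on the SVZ Sox2-GFP arrays. The summed level of 10 astrocyte markers, such as Aqp4 and Gfap, was 83.6, 93.2 and 10.6 on the hippocampal Sox2-GFP arrays, 27.2 to 39.5 on the DCX-DsRed arrays and 85.7 to 171 on the SVZ arrays. Of 10 markers of choroid plexus epithelium, 9 were measured, and their summed level was 80.4, 52.9 and 181 on the hippocampal Sox2-GFP arrays against 2.27 to 3.06 and 2.25 to 3.30 on the DCX-DsRed and SVZ arrays. Of 10 ependymal markers, 9 were measured and summed to 22.4 to 33.1, 1.63 to 3.41 and 3.05 to 10.6 in the same order of populations. The choroid plexus marker Aqp1 and the ependymal marker Tmem212 missed the software's background criterion on all 3 DCX-DsRed arrays.

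**Figure D1:**
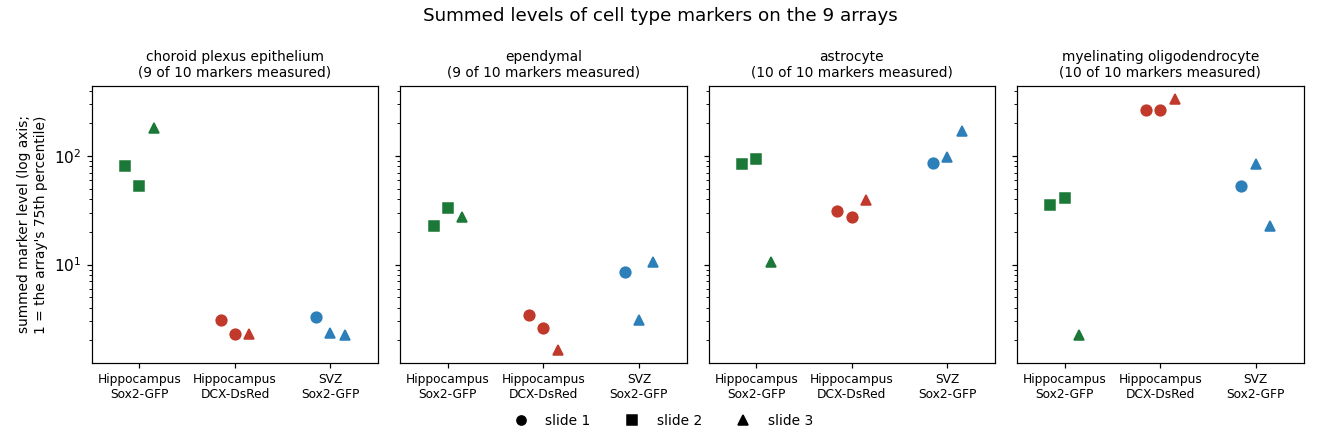
Summed linear levels of the markers of 4 cell types on each of the 9 arrays, on a log axis where 1 is the array's 75th percentile; the marker shape gives the slide. Myelinating oligodendrocyte markers summed to 266 to 336 on the hippocampal DCX-DsRed arrays, and choroid plexus markers were highest on the 3 hippocampal Sox2-GFP arrays.

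Arrays also fell on 3 slides. Slide 1 held hippocampal DCX-DsRed A and B and SVZ Sox2-GFP A, slide 2 held hippocampal Sox2-GFP A and B, and slide 3 held array C of each population and SVZ Sox2-GFP B. The hippocampal populations therefore met only on slide 3, as 1 array against 1. Since slide 2 held no other population, a fit with slide as a fixed block compares hippocampal Sox2-GFP cells by array C alone.

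Among the 3 apolipoproteins, Apod was the one that was highest in the hippocampal DCX-DsRed cells, while Apoe and Clu were higher in both Sox2-GFP populations. Apolipoprotein D is a small secreted lipocalin that carries hydrophobic ligands. Apod stood at 5.78, 5.68 and 6.11 in hippocampal DCX-DsRed cells (mean 5.86 ± 0.23, SD, n = 3). In SVZ Sox2-GFP cells it stood at 2.25, 2.65 and 2.17 (2.36 ± 0.26, SD, n = 3). The hippocampal Sox2-GFP arrays gave -0.38, 2.05 and -2.52 (-0.28 ± 2.29, SD, n = 3). The DCX-DsRed arrays lay together at the top, the SVZ arrays lay together below them, and the hippocampal Sox2-GFP arrays were spread over more than 4 log2 units below both. No 2 populations overlapped, although the highest hippocampal Sox2-GFP array lay only 0.12 below the lowest SVZ array. The hippocampal difference, Sox2-GFP minus DCX-DsRed, was -6.14 (SE 0.96), a 70.4-fold lower level in Sox2-GFP cells. It moved to 32.4-fold without Sox2-GFP array C and to 158-fold without array B, and on slide 3 alone it was 396-fold. With slide as a fixed block it was 376-fold. SVZ Sox2-GFP cells were 11.3-fold lower than DCX-DsRed cells (difference -3.50, SE 0.96), with 11.2-fold on slide 1 and 13.0-fold on slide 3. Apod in SVZ cells was 6.22-fold above that in hippocampal Sox2-GFP cells (2.64, SE 0.96), a value that was 2.86-fold without hippocampal array C, 14.0-fold without array B and 30.5-fold on slide 3. The sum of oligodendrocyte markers given above was also highest on the 3 DCX-DsRed arrays and lowest on hippocampal Sox2-GFP array C, where Apod was lowest too. The part of these cells in the Apod values was not tested.

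The stretch around the Apod start site is shown because this gene had the largest hippocampal difference of the 9. It covers chr16:31314789-31314888 on the minus strand of GRCm38.p6 (RefSeq), from 80 bases before to 20 after the start site, and the capitals mark a pair of inverted ACAAT half-sites that lie within the transcribed part.
Apod: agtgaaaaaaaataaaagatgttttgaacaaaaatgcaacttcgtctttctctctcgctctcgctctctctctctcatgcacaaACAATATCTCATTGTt
The letters searched were ACAATNNNNNATTGT, which reads the same on both strands and can contain CATTGT, the reverse complement of ACAATG. They were chosen after the promoter sequences had been seen, because ACAAT is the core that the DNA-binding box of SOX proteins recognises. Of 32851 promoter windows of 300 bases, 11 (0.0335%) held them, and the match is a description of letters only.

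Apolipoprotein E is the main lipid carrier of the brain's own lipoproteins and the ligand of the receptors below. Apoe stood at 4.38, 4.20 and 4.56 in hippocampal Sox2-GFP cells (4.38 ± 0.18, SD, n = 3). It reached 2.83, 2.50 and 3.16 in hippocampal DCX-DsRed cells (2.83 ± 0.33, SD, n = 3). SVZ Sox2-GFP cells gave 3.81, 4.01 and 5.02 (4.28 ± 0.65, SD, n = 3). All 6 Sox2-GFP arrays lay above all DCX-DsRed arrays, and the Sox2-GFP populations overlapped. The probe was printed as 10 spots per array, and their SD within an array was 0.03 to 0.17, smaller than the SD between arrays of any population. The difference between hippocampal populations was 1.55 (SE 0.40), 2.92-fold higher in Sox2-GFP cells, and SVZ cells exceeded DCX-DsRed cells by 1.45 (SE 0.40), or 2.73-fold. On slide 3 these folds were 2.63 and 2.55, and on slide 1 the second was 2.21. Between the Sox2-GFP populations the difference was -0.10 (SE 0.40), and it changed sign when SVZ array A or B was left out. The astrocyte marker sum was also above the DCX-DsRed arrays on every Sox2-GFP array except hippocampal array C. There it was the lowest of all arrays (10.6), while Apoe stood at 4.56. The part of astrocytes or other cell types in the Apoe values was not tested.

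Clusterin, the product of Clu, is a secreted chaperone that is also called apolipoprotein J and travels on lipoproteins. Clu stood at 4.14, 3.85 and 4.70 in hippocampal Sox2-GFP cells (4.23 ± 0.43, SD, n = 3) and at 3.70, 3.51 and 4.80 in SVZ Sox2-GFP cells (4.0 ± 0.70, SD, n = 3). DCX-DsRed cells gave 0.19, -1.25 and 0.96 (-0.03 ± 1.12, SD, n = 3). The DCX-DsRed arrays lay apart from the other 6 by more than 2 log2 units, and the Sox2-GFP populations overlapped. Clu was 19.2-fold higher in hippocampal Sox2-GFP than in DCX-DsRed cells (4.26, SE 0.61), and 16.3-fold higher without Sox2-GFP array C. Leaving out DCX-DsRed array B, the lowest, gave 12.6-fold, and slide 3 alone gave 13.3-fold. SVZ Sox2-GFP cells were 16.4-fold above DCX-DsRed cells (4.04, SE 0.61), with 18.8-fold on slide 1 and 9.13-fold on slide 3. Choroid plexus and ependymal markers were highest on the hippocampal Sox2-GFP arrays. The astrocyte sum lay above the DCX-DsRed arrays on every Sox2-GFP array except hippocampal array C. That array had the lowest astrocyte sum of all arrays (10.6), and its Clu level was 4.70. Clu is known to be expressed in all these cell types. The part of these cell types in the Clu values was not tested.

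**Figure D2:**
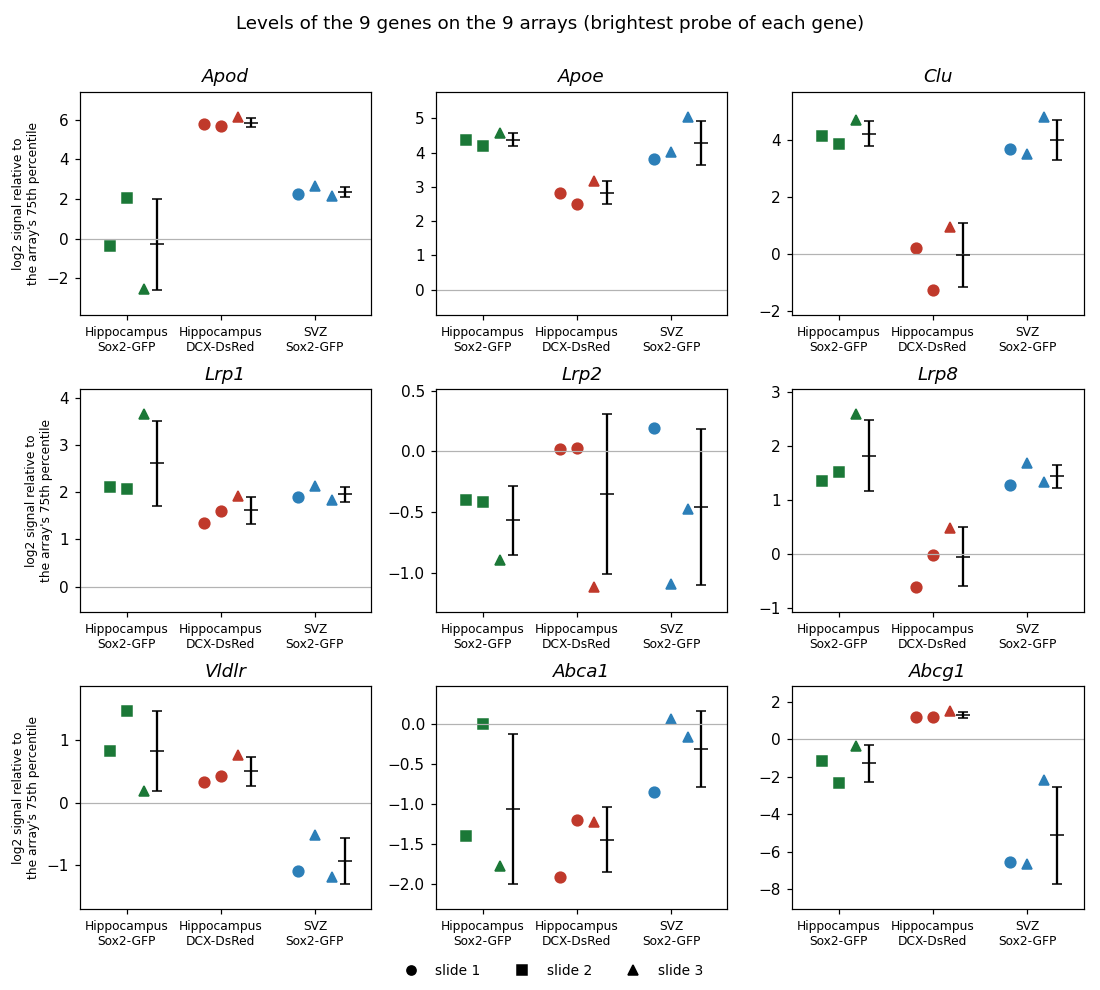
Levels of the 9 genes on each of the 9 arrays, as log2 signal minus the array's 75th percentile, by the brightest probe of each gene. Points are arrays, the marker shape gives the slide, the bar to the right of each group is the mean with the SD of 3 arrays, and each panel has its own axis. Apod and Abcg1 were highest in hippocampal DCX-DsRed cells, and Apoe, Clu and Lrp8 lay lowest there.

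The Apoe promoter is shown because Apoe and the receptor gene Lrp8 both stood above DCX-DsRed cells on all 6 Sox2-GFP arrays, and a stretch before each start site holds the letters ACAATG, given in capitals. The stretches are chr7:19699189-19699388 on the minus strand, the 200 bases before the Apoe start site, and chr4:107802785-107802884 on the plus strand, the 100 bases before the Lrp8 start site (GRCm38.p6, RefSeq).
Apoe: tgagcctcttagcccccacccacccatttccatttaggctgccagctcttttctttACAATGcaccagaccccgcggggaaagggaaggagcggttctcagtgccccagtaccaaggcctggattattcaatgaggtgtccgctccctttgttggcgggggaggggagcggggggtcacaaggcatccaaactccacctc
Lrp8: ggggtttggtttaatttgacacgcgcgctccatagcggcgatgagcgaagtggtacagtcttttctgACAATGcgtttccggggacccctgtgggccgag
ACAATG was searched on both strands, again chosen after the sequences had been seen, and 4129 of the 32851 windows (12.6%) held it. It begins 144 bases before the Apoe start site shown and 33 before that of Lrp8. RefSeq lists 3 start sites for each of these genes, and the windows of their other start sites did not hold ACAATG. Among the members it was also found in a window of Vldlr, 229 bases before the start site, and inside the paired letters of Apod. Vldlr did not share the pattern of Apoe and Lrp8. The RefSeq table held promoters of 7 of the 9 genes, in 12 windows, and none for Clu and Abcg1.

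Of the 4 receptors, Lrp8 followed the apolipoproteins Apoe and Clu, Vldlr was lowest in the SVZ, and Lrp1 and Lrp2 gave values that depended on the probe. Lrp8, also called apolipoprotein E receptor 2, binds apolipoprotein E and Reelin. Lrp8 stood at 1.36, 1.52 and 2.58 in hippocampal Sox2-GFP cells (1.82 ± 0.67, SD, n = 3), at -0.61, -0.03 and 0.48 in DCX-DsRed cells (-0.05 ± 0.54, SD, n = 3) and at 1.29, 1.68 and 1.34 in SVZ Sox2-GFP cells (1.44 ± 0.22, SD, n = 3). The DCX-DsRed arrays were again the lowest 3, and the Sox2-GFP populations overlapped. Lrp8 was 3.66-fold higher in hippocampal Sox2-GFP than in DCX-DsRed cells (1.87, SE 0.44), 2.81-fold without Sox2-GFP array C and 4.31-fold on slide 3. In SVZ cells it was also 2.81-fold above DCX-DsRed cells (1.49, SE 0.44), with 3.04-fold on slide 1 and 2.05-fold on slide 3.

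Vldlr, the very low-density lipoprotein receptor, is the other Reelin receptor. Its brightest probe gave 0.83, 1.46 and 0.19 in hippocampal Sox2-GFP cells (0.83 ± 0.64, SD, n = 3) and 0.32, 0.42 and 0.76 in DCX-DsRed cells (0.50 ± 0.23, SD, n = 3). In SVZ Sox2-GFP cells it gave -1.10, -0.52 and -1.18 (-0.93 ± 0.36, SD, n = 3). The SVZ arrays lay below all 6 hippocampal arrays, and the hippocampal populations overlapped. The SVZ level was 3.38-fold below hippocampal Sox2-GFP cells (-1.76, SE 0.40) and 2.71-fold below DCX-DsRed cells (-1.44, SE 0.40). Without hippocampal Sox2-GFP array C the first was 4.22-fold, and on slide 3 it was 2.06-fold. The other Vldlr probe was dimmer and more scattered, at -2.00, -0.92 and -5.04, at -1.19, -2.20 and -1.92, and at -2.60, -2.96 and -5.07 in the same order of populations. By that probe SVZ cells were below DCX-DsRed cells by 1.78 on the log2 scale (difference -1.78, SE 1.07) without overlap, but overlapped hippocampal Sox2-GFP cells. The probes also differed in the sign of the hippocampal difference, 0.32 (SE 0.40) against -0.89 (SE 1.07), and both values were smaller than the spread between arrays.

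Lrp1 is a large endocytic receptor of neurons and glia that clears apolipoprotein E particles. Its brightest probe gave 2.11, 2.07 and 3.65 in hippocampal Sox2-GFP cells (2.61 ± 0.90, SD, n = 3), 1.34, 1.61 and 1.92 in DCX-DsRed cells (1.62 ± 0.29, SD, n = 3) and 1.89, 2.14 and 1.84 in SVZ cells (1.96 ± 0.16, SD, n = 3). The hippocampal populations did not overlap but were separated by only 0.15, and the SVZ arrays overlapped the DCX-DsRed arrays. The hippocampal difference was 0.99 (SE 0.46), or 1.98-fold, 1.38-fold without Sox2-GFP array C and 3.61-fold with slide as a fixed block. The dimmer Lrp1 probe gave 0.59, 1.75 and -1.69 in hippocampal Sox2-GFP cells, -7.12, -1.22 and -3.68 in DCX-DsRed cells and 0.35, 0.75 and 1.17 in SVZ cells. It was not well above background on DCX-DsRed array A, the array with the lowest value. By this probe the differences from DCX-DsRed cells were 4.22 (SE 1.42) for hippocampal Sox2-GFP cells, with overlap, and 4.76 (SE 1.42) for SVZ cells, without overlap. The corresponding SVZ difference by the brightest probe was 0.33 (SE 0.46), so the probes of Lrp1 disagreed in size. They disagreed in sign for SVZ minus hippocampal Sox2-GFP cells. The brightest probe gave -0.66 (SE 0.46) and the dimmer 0.54 (SE 1.42), both with overlap. Hippocampal Sox2-GFP array C was the highest array by the brightest probe and the lowest Sox2-GFP array by the dimmer one.

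Lrp2, or megalin, is the endocytic receptor of absorptive epithelia, the ependyma and the choroid plexus among them. Its brightest probe gave -0.40, -0.41 and -0.89 in hippocampal Sox2-GFP cells, 0.02, 0.03 and -1.11 in DCX-DsRed cells and 0.19, -1.09 and -0.47 in SVZ cells. The 3 populations overlapped in every pair, and the differences were -0.22, 0.11 and -0.10, each with an SE of 0.46. The other 3 probes gave differences of 0.11 to 0.67 between the hippocampal populations. The third-brightest probe separated these populations by a gap of 0.13 (difference 0.61, SE 0.36), and the dimmest put all SVZ arrays below all hippocampal Sox2-GFP arrays (-1.17, SE 0.59). No Lrp2 probe differed by more than 2.24-fold between populations. The choroid plexus and ependymal sums were highest on the hippocampal Sox2-GFP arrays, and their part in the Lrp2 values was not tested.

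**Figure D3:**
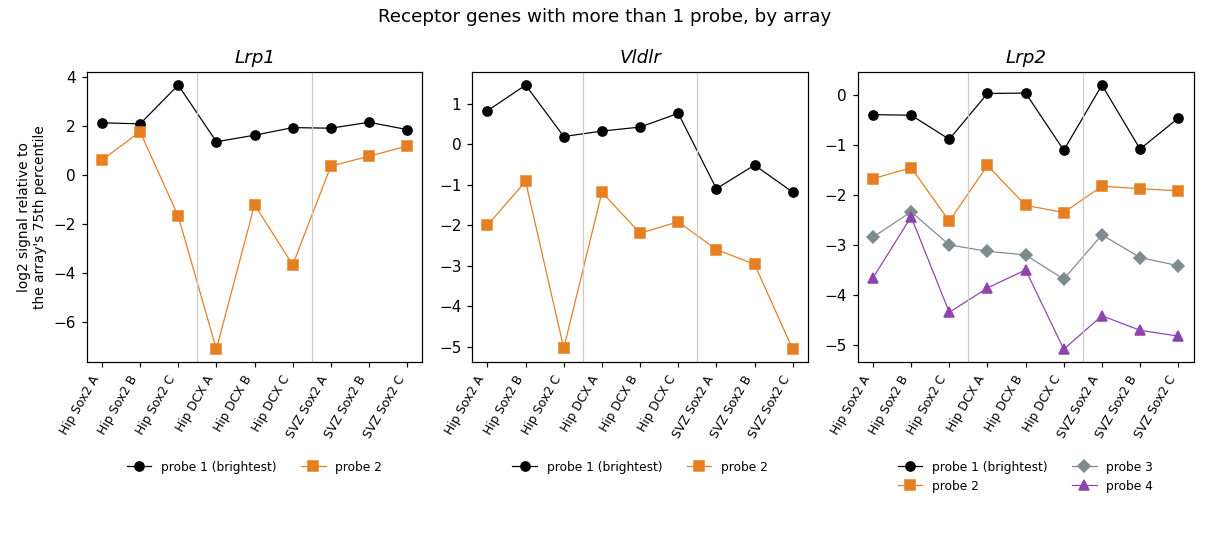
Levels of every probe of the 3 receptor genes with more than 1 probe, on each of the 9 arrays, as log2 signal minus the array's 75th percentile; the axes differ between panels and lines join the values of 1 probe. The dimmer Lrp1 probe dropped to -7.12 on DCX-DsRed array A while the brightest stayed at 1.34, and the brightest Vldlr probe lay below 0 on the SVZ arrays only.

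The exporters differed from each other. ABCG1 passes cholesterol to particles that already carry lipid. Abcg1 stood at 1.20, 1.19 and 1.49 in hippocampal DCX-DsRed cells (1.29 ± 0.17, SD, n = 3) and at -1.17, -2.33 and -0.34 in hippocampal Sox2-GFP cells (-1.28 ± 1.00, SD, n = 3). The SVZ arrays gave -6.56, -6.68 and -2.16 (-5.13 ± 2.57, SD, n = 3), of which only 1 array was well above background. DCX-DsRed cells were the highest without overlap, and SVZ array C overlapped the hippocampal Sox2-GFP arrays. Hippocampal Sox2-GFP cells were 5.95-fold below DCX-DsRed cells (-2.57, SE 1.14), 8.25-fold without Sox2-GFP array C and 3.55-fold on slide 3. SVZ cells were 86.0-fold below DCX-DsRed cells (-6.43, SE 1.14), a size that rested on signals at background: it was 21.7-fold with another background correction (normexp), 240.5-fold without SVZ array C, 52.4- and 50.4-fold without SVZ array A or B, 216-fold on slide 1 and 60.2-fold on slide 3. Oligodendrocyte markers were highest on the DCX-DsRed arrays here as well. Among the Sox2-GFP arrays, hippocampal array C had the lowest sum of these markers (2.22) and the highest Abcg1. SVZ arrays A and B had the highest sums (53.1 and 83.5) and the lowest Abcg1. The part of oligodendrocytes in the Abcg1 values was not tested.

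ABCA1 loads cholesterol and phospholipid onto apolipoproteins that carry little lipid. Abca1 stood at -1.40, 0.00 and -1.78 in hippocampal Sox2-GFP cells (-1.06 ± 0.94, SD, n = 3), -1.91, -1.21 and -1.22 in DCX-DsRed cells (-1.45 ± 0.40, SD, n = 3) and -0.85, 0.06 and -0.16 in SVZ Sox2-GFP cells (-0.31 ± 0.48, SD, n = 3). The SVZ arrays lay above the DCX-DsRed arrays, and hippocampal Sox2-GFP cells overlapped both. SVZ cells were 2.19-fold above DCX-DsRed cells (1.13, SE 0.52), with 1.64-fold on slide 1 and 2.26-fold on slide 3. The hippocampal difference of 0.39 (SE 0.52) changed sign without Sox2-GFP array B, with slide as a block and on slide 3.

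Over the whole list, the hippocampal comparison addressed how cells sorted by the stem cell reporter differ from those sorted by the neuroblast reporter. Of the 9 genes, 6 were higher and 3 lower in Sox2-GFP cells, with a median difference of 0.39 against -0.08 over all genes. The arrays did not overlap for 6 of 9, where the background over all 24892 genes was 24.7%, and 2 of 9, Clu and Apod, passed an adjusted p of 0.05 in limma's moderated test, where the background was 3.17%. In SVZ Sox2-GFP minus hippocampal Sox2-GFP cells, which share a reporter and differ in region and, for arrays A and B of the hippocampus, in slide, 3 of 9 were higher and 6 lower, with a median of -0.23 against 0.07. Apod and Vldlr did not overlap (2 of 9, background 16.9%), and 0 of 9 passed limma's adjusted threshold (background 0.398%; 2689 of all genes had an unadjusted p under 0.05). In SVZ Sox2-GFP minus DCX-DsRed cells the median was 0.33 against -0.03, 7 of 9 did not overlap (background 21%), and Clu and Abcg1 passed (2 of 9, background 1.55%). The 3 comparisons share populations, and the list was chosen with the values known, so nothing is read from these counts. Clu passed in the hippocampal comparison under 21 of 22 alternatives, the exception being slide 3 alone. Apod no longer passed on slide 3, in a fit of only the 2 hippocampal groups, or without Sox2-GFP array A (68.1-fold) or DCX-DsRed array A, B or C. Against SVZ cells, Clu no longer passed on slide 1 or 3 or without DCX-DsRed array A or B (10.8-fold) or any 1 SVZ array. Abcg1 passed in 12 of 23 alternatives and was lost with slide as a fixed block (114-fold), on slide 1 or 3, with only the 2 groups in the fit, and in the absence of hippocampal Sox2-GFP array A or B, of any DCX-DsRed array, or of SVZ array A or B. Other members passed only under some alternatives. In the hippocampal comparison Lrp8 did so with slide as a fixed (4.91-fold) or random block (3.96-fold), Lrp8 and Apoe with normexp, quantile normalization or an eBayes trend, Lrp1 with slide as a fixed block, and Abcg1 without SVZ array C. Between the Sox2-GFP populations Apod (31.2-fold) and Lrp1 (3.04-fold, brightest probe) passed with slide as a fixed block and Abcg1 without SVZ array C (40.4-fold). The dimmer Lrp1 probe gave the opposite sign between these populations. In both comparisons with hippocampal Sox2-GFP cells, the fixed-block values rest on array C of these cells, as said above. Apod passed against SVZ cells with only the 2 groups in the fit and without hippocampal Sox2-GFP array B or C.

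**Figure D4:**
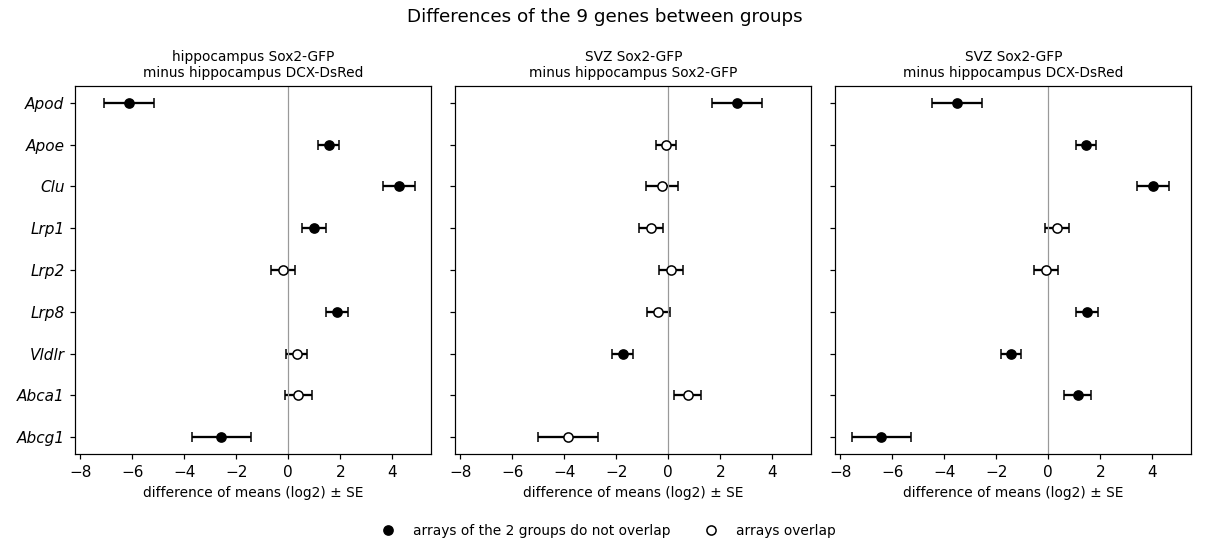
Differences of the 9 genes in the 3 comparisons, as the difference of group means (log2) with the SE of limma's fit over all 9 arrays; filled points are genes whose arrays do not overlap between the populations compared. Apod and Clu lie farthest from 0 in the hippocampal comparison and Abcg1 in the comparison of SVZ Sox2-GFP with DCX-DsRed cells.

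For each member the 3 genes with the most similar levels over the 9 arrays were listed by Pearson's r. These are descriptions over arrays that fall into 3 populations, so that genes which separate the same populations resemble each other. Apod was most like Tmod2 (r = 0.989), Tmcc3 (0.978) and Kcnu1 (0.975). Apoe was most like Clu (0.967), the neurotrophin receptor gene Ntrk2 (0.965) and Timp3 (0.962), an inhibitor of matrix proteases. Clu was most like Abhd18 (0.976), Ap4b1 (0.975) and Pank2 (0.973). The receptor genes Lrp1, Lrp2, Lrp8 and Vldlr were most like Plag1 (0.972), Akap6 (0.980), Olfr670 (0.974) and Cfap45 (0.975). Lrp2 did not separate the populations, and the match with Akap6 rests on small differences between arrays. Lrp2 ranged over 1.30 log2 units and Akap6 over 0.62. Abca1 was most like Igsf21 (0.925) and Abcg1 like Gstp1 (0.984). Apoe and Clu were thus the only pair of members in which one was among the 3 genes most like the other.

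Around the 9 genes, 91 other genes of lipoprotein traffic were listed in 6 groups, of which 89 were measured. In the hippocampal comparison 3 rose and 4 fell in Sox2-GFP relative to DCX-DsRed cells by limma's test adjusted over all genes, where 1.74% of all genes were called higher and 1.43% lower. Of 13 other apolipoproteins none passed in any comparison, and their median hippocampal difference was -0.31 against -0.08 over all genes. The one with the smallest p was Apoc3, an inhibitor of lipoprotein lipase, at -2.02 (adjusted p = 0.244, limma). Of 21 other lipoprotein, sortilin-family and scavenger receptors, Lrp3 rose and Sorcs1 fell. Lrp3, a member of the receptor family, stood at 1.38, 1.35 and 1.33 in Sox2-GFP cells and at -1.50, 0.04 and -0.34 in DCX-DsRed cells, 3.87-fold higher (adjusted p = 0.0452, limma). Sorcs1, a sorting receptor of the sortilin family, was 2.52-fold lower (-1.33, SE 0.27, adjusted p = 0.0422, limma). In SVZ Sox2-GFP cells the same 2 genes were called against DCX-DsRed cells, Lrp3 at 4.77-fold higher (adjusted p = 0.0401, limma) and Sorcs1 at 3.86-fold lower (adjusted p = 0.0176, limma). Both calls in the hippocampus were lost on leaving out any 1 of the 9 arrays, at 2.84- to 4.83-fold for Lrp3 and 2.35- to 2.66-fold for Sorcs1. Slide as a fixed block also ended both, and as a random block that of Lrp3. Against SVZ cells the Lrp3 call was lost with slide as a fixed block and without any 1 array other than hippocampal Sox2-GFP C, and the Sorcs1 call without DCX-DsRed array A or B or SVZ array B or C.

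Among 13 receptor chaperones, adaptors, regulators and Reelin signalling genes, Dab2 alone passed in the hippocampal comparison. Dab2 is a clathrin adaptor that binds the tails of receptors of this family, megalin among them. It stood at 1.52, 0.98 and 2.48 in hippocampal Sox2-GFP cells, at -1.41, -1.85 and -1.93 in DCX-DsRed cells and at -1.25, -0.69 and -0.79 in SVZ Sox2-GFP cells. The hippocampal Sox2-GFP arrays lay above the other 6. Dab2 was 10.5-fold higher than in DCX-DsRed cells (3.39, SE 0.43, adjusted p = 0.00749, limma), 7.88-fold without array C, 17.6-fold with slide as a fixed block and 21.3-fold on slide 3, where it was not called. Against SVZ cells the difference of -2.57 missed the threshold (adjusted p = 0.0611, limma), but Dab2 was called there with slide as a fixed (10.2-fold lower in the SVZ) or random block (7.33-fold), with normexp or quantile normalization, and with an eBayes trend. Choroid plexus and ependymal markers were also highest on the hippocampal Sox2-GFP arrays, and their part in the Dab2 values was not tested.

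Of 16 other lipid transporters of the A and G classes, 1 rose and 2 fell, and 3 of 16 had a positive hippocampal difference; the median was -0.98 against -0.08 over all genes. Abca4, a phospholipid and retinoid transporter known from photoreceptors, stood at -0.71, -0.48 and 2.56 in hippocampal Sox2-GFP cells. None of the 3 DCX-DsRed arrays had it well above background, which makes it at least 63.9-fold higher in Sox2-GFP cells (adjusted p = 0.0108, limma). This bound sets the mean of the Sox2-GFP arrays against the lowest signal that was well above background on each DCX-DsRed array. Where the gene's own signal on an array was higher than that floor, its own signal was used. The bound holds on this scale only. The fitted fold of Abca4 was 62.8 without Sox2-GFP array C and 194 without array A. It was 867 with slide as a fixed block and 20.5 with normexp background correction. In SVZ cells Abca4 was well above background on 1 of 3 arrays and lower than in hippocampal Sox2-GFP cells (adjusted p = 0.0176, limma). The fitted fold of 246 rests on 2 SVZ arrays at background: it was 22.9 with normexp, 119 without hippocampal array C, the array with the highest choroid plexus sum, and 453 and 1316 with slide as a random and a fixed block. The SVZ call was lost without hippocampal Sox2-GFP array A or without SVZ array B or C, at 369-, 195- and 192-fold, and the fold was 397 without SVZ array A. Abca8a fell 8.72-fold (adjusted p = 0.0178, limma; 23.3-fold with slide as a fixed block), and Abca2, a transporter abundant in oligodendrocytes, fell 3.48-fold (adjusted p = 0.027, limma) in hippocampal Sox2-GFP relative to DCX-DsRed cells. Abca2 stood at 3.37, 3.21 and 3.41 in DCX-DsRed cells against 1.54, 1.89 and 1.15 in hippocampal Sox2-GFP and 1.65, 1.08 and 1.19 in SVZ Sox2-GFP cells. SVZ cells were lower than DCX-DsRed cells by 12.3-fold for Abca8a (adjusted p = 0.0166, limma) and 4.07-fold for Abca2 (adjusted p = 0.027, limma). In the hippocampus the Abca8a call was lost without Sox2-GFP array A or any DCX-DsRed array (7.38- to 9.91-fold), and the Abca2 call also without Sox2-GFP array C (3.05-fold). Against SVZ cells both calls were lost without any DCX-DsRed array or SVZ array C, that of Abca8a also without SVZ array A, and that of Abca2 also without SVZ array B or hippocampal Sox2-GFP array A. Abca2 and Abca8a were highest on the DCX-DsRed arrays, as was the oligodendrocyte marker sum, while Abca4 was not well above background there. Abca8a stood at -1.03, -0.57 and -2.40 in hippocampal Sox2-GFP cells and at -2.07, -1.56 and -1.87 in SVZ cells. Among the hippocampal Sox2-GFP arrays both Abca2 and Abca8a followed the order of that sum, with B highest and C lowest. Among the SVZ arrays neither did. The part of oligodendrocytes in these values, and of choroid plexus cells in those of Abca4, was not tested.

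Of 11 lipoprotein remodelling enzymes and cofactors none passed in any comparison of the fit over all 9 arrays. Pltp, which transfers phospholipid between particles, had the smallest p in the hippocampus, at 3.11, 3.58 and 2.72 in Sox2-GFP and 1.52, 0.86 and 0.01 in DCX-DsRed cells (2.34, SE 0.63, adjusted p = 0.095, limma), and it was called with normexp and without SVZ array B. For SVZ against DCX-DsRed cells it was Lipg, the endothelial lipase gene, at 1.90 (adjusted p = 0.108, limma), which was called with slide as a random block. Of 15 genes of sterol sensing and intracellular cholesterol handling, Cyp27a1, which encodes the mitochondrial sterol 27-hydroxylase, fell. It stood at 0.32, -0.42 and 0.23 in DCX-DsRed cells, was not well above background on any hippocampal Sox2-GFP array, and was at least 47.5-fold lower there (adjusted p = 0.00778, limma). This bound was formed as for Abca4, with the floor on the Sox2-GFP arrays, and likewise holds on this scale only. The fitted fold of Cyp27a1 was 48.5 without Sox2-GFP array C, 146 without array A, 380 with slide as a fixed block and 13.8 with normexp. In SVZ cells it stood at -4.90, -5.59 and -3.54, 26.4-fold below DCX-DsRed cells (adjusted p = 0.038, limma). That call was lost on leaving out hippocampal Sox2-GFP array B, any DCX-DsRed array or any SVZ array. Of the 89 genes, 1 rose and 4 fell in SVZ Sox2-GFP relative to DCX-DsRed cells, where the background of calls was 1.55%. Between the Sox2-GFP populations Abca4 was the only one of the 89 called, where the background was 0.398%, and the other genes with the smallest p of their group were Apoh (1.85, adjusted p = 0.444, limma), Sorcs2 (1.93, adjusted p = 0.434, limma; called, at 14.9-fold, with slide as a fixed block), Pltp (-1.52, adjusted p = 0.439, limma) and Cyp27a1 (1.80, adjusted p = 0.496, limma). In SVZ minus DCX-DsRed cells Apoc3 was not called (-1.74, adjusted p = 0.388, limma). A fit of only the 2 groups compared ended the hippocampal calls of Lrp3, Sorcs1, Abca8a and Abca2, the Lrp3 call against SVZ cells and the Abca4 call between the Sox2-GFP populations. Without the filter on background the hippocampal calls of Lrp3 and Sorcs1 were lost, and with an eBayes trend that of Sorcs1.

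**Figure D5:**
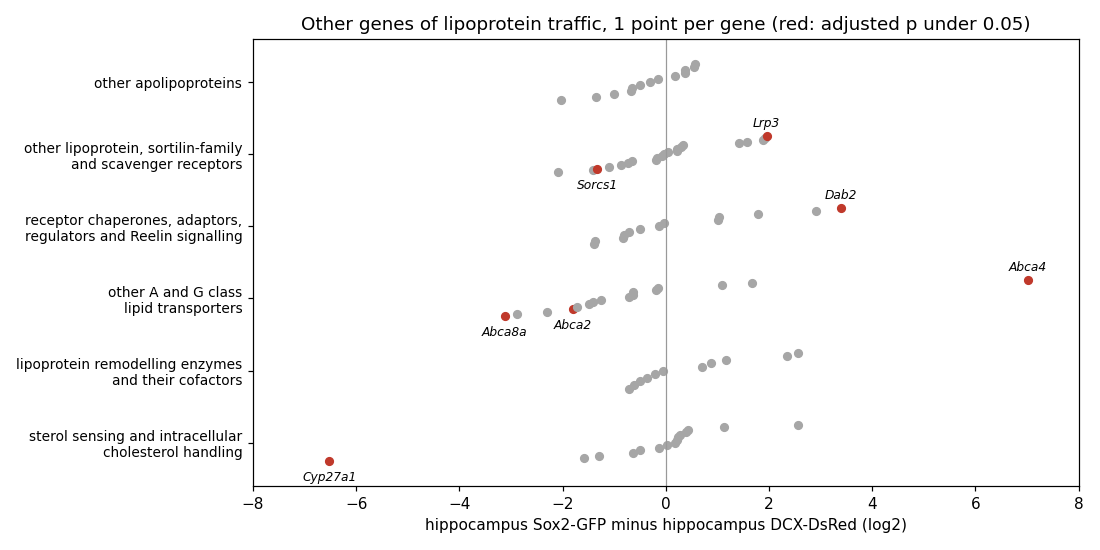
Differences of the 89 measured genes of lipoprotein traffic, by group, between hippocampal Sox2-GFP and DCX-DsRed cells (log2, 1 point per gene, height within a group has no meaning); red points passed limma's test at an adjusted p of 0.05. The fitted values of Abca4 and Cyp27a1 involve signals that were not well above background in 1 population. Of the A and G class transporters 3 of 16 lie to the right of 0.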

How the data were processed

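Per the file headers, the authors deposited scanner output of Agilent Feature Extraction 9.5.1.1 for 9 one-colour arrays, in which the processed signal is a background-corrected Cy3 intensity per spot. The submitters' processing notes name limma without a version, and the genome build of the probes is not given in the sources used here. RNA of 1000 cells was amplified before labelling, which can widen differences of dim probes.

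From these files, log2 of the processed intensity minus each array's 75th percentile was computed. Control spots and spots flagged as outliers were left out, replicate spots were averaged, and 40710 of 41174 probes remained. Probe names were taken by probe from the other arrays where the file of hippocampal DCX-DsRed array A held 47 symbols altered by a spreadsheet. Accessions were matched to RefSeq for 23075 probes and older symbols for 3077, and the file's name was kept for 15022. A probe was tested if well above background on at least 3 of 9 arrays, and the brightest probe stood for a gene (24892 genes). All 9 arrays were fitted in R 4.3.3 with lmFit and eBayes of limma 3.58.1, with population as the only term and Benjamini-Hochberg adjustment over all genes at 0.05. The fit was also run on simulated data with independent noise and no slide effect, so that run cannot show how the fit behaves with slide effects. The precision is limited by 3 arrays per population.

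The members, the 6 pathway lists and the 12 marker lists were chosen with earlier results of these data known. Genes named from the pathway lists were up to 3 called genes with the largest difference per list and comparison, or else the gene with the smallest p; similar genes were the 3 with the highest Pearson's r that have a gene symbol. One result that the rule picks is not reported here. Promoter letters are from RefSeq's GRCm38.p6 table. Alternatives varied the background correction, scaling, filters, probe rule, samples in the fit, slide, replicate block, eBayes trend and each array in turn; the fit within slide 1 was added after seeing the data.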

Additional observations from a re-analysis of the deposited data

How the results depend on the processing

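Of the 27 differences of the 9 genes, 20 kept their sign in all alternatives run, and so did all 23 pathway differences picked by the naming rule; the 7 others were Lrp2 in every comparison, Abca1 and Vldlr in the hippocampal one and Apoe and Clu between the Sox2-GFP populations. For hippocampal Sox2-GFP minus DCX-DsRed cells the count of genes called was 790, and 2026 with slide as a fixed block, where the share called higher went from 54.9 to 37.1%. For SVZ minus hippocampal Sox2-GFP cells it was 99, and 162 with normexp, 173 with the mean of probes, 8 with only the 2 groups compared and 2129 with slide as a fixed block, where the share called higher went from 11.1 to 63.7%. For SVZ Sox2-GFP minus DCX-DsRed cells it was 385, and 794 with slide as a fixed and 834 as a random block. Within slide 3, limma called 0 genes in each comparison (3998, 4207 and 2638 had an unadjusted p under 0.05), and within slide 1 it called 0 in the third (4474); these fits have 1 residual degree of freedom, and an arm of 1 array is assumed to vary like the others. Leaving out 1 array gave 251 to 773, 25 to 97 and 49 to 846 calls, the last without hippocampal Sox2-GFP array C. The letters A, B and C did not pair the samples (correlations of deviations from -0.04 to 0.12), and with them as a replicate block the counts were 489, 13 and 191; among the named pathway genes this ended the calls of Lrp3, Abca2 and Abca8a in both comparisons with DCX-DsRed cells, Sorcs1 in the hippocampus, Abca4 between the Sox2-GFP populations and Cyp27a1 in the SVZ. With slide as a fixed block, the differences of hippocampal Sox2-GFP cells rest on array C, as arrays A and B were alone on slide 2. Beyond this, why the counts moved with the slide was not tested. Dim probes limit the sizes for Abcg1, Abca4 and Cyp27a1, whose folds shrank with normexp.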

Other observations

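The marker sums not given above follow as ranges of the summed linear level over hippocampal Sox2-GFP, hippocampal DCX-DsRed and SVZ Sox2-GFP arrays, in that order. Oligodendrocyte precursor markers (8 of 8 measured) summed to 8.26 to 9.0, 16.3 to 16.6 and 8.82 to 10.0, highest in DCX-DsRed cells. Newborn neuron markers (7 of 8) summed to 1.84 to 4.13, 3.52 to 7.62 and 2.31 to 19.9, so that the highest value lay in the SVZ population and the groups overlapped. Mature neuron markers (6 of 7) gave 5.01 to 7.52, 8.65 to 8.93 and 5.15 to 12.7. Endothelial markers (6 of 6) gave 2.17 to 6.87, 3.63 to 4.41 and 2.34 to 9.07, mural markers (6 of 6) 13.8 to 17.9, 13.3 to 20.7 and 9.07 to 15.3, and meningeal fibroblast markers (7 of 7) 3.45 to 8.95, 2.61 to 4.25 and 3.57 to 4.93. Microglia markers (10 of 10) gave 7.14 to 10.6, 6.60 to 7.31 and 5.38 to 6.17, and erythroid markers (3 of 4) 1.52 to 4.58, 1.68 to 2.28 and 1.78 to 11.1. The part of these cells in the values of the 9 genes was not tested.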
